A study of Mus musculus with 15 samples.

Results

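The cassette exons described here are the 4 that the authors' deposited table of changed exons lists for Macf1, Cobl and Dysf, out of 98 exons in 84 genes; Macf1 has 2 of them and the other genes 1 each. They were taken by gene symbol from that table, which itself holds the exons whose inclusion differed between Mbnl3 ΔE2/ΔE2 and WT forelimbs. They were thus selected on their inclusion tags in the RNA-seq, and the change in inclusion is given below as a description. Binding was examined separately, by HITS-CLIP with an antibody against Mbnl3. In HITS-CLIP, proteins are crosslinked to RNA with UV light, the protein is immunoprecipitated and the bound RNA fragments are sequenced as tags.

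The RNA-seq compared forelimbs of 3 homozygous ΔE2 and 3 WT female embryos at 15 days post coitum. The CLIP had 3 replicates each of ΔE2 forelimb, of C2C12 cells and of WT forelimb. C2C12 is a mouse myoblast line, grown here in medium with 20% fetal bovine serum and harvested as 5 plates of 10 cm per replicate; its labelled genotype is WT. The forelimbs for CLIP came from BL6 mice, and a replicate pooled 4 forelimbs of 2 embryos. All 9 CLIP libraries were made with the Mb3/7 antibody against Mbnl3. The mutant samples are titled Mbnl3 KO, while the title of the series speaks of an isoform knockout, so whether ΔE2 embryos lack every form of Mbnl3 was not tested. Whether CLIP tags in the ΔE2 libraries, or tags present in both genotypes, mark binding of Mbnl3 was not tested either. A forelimb holds muscle, cartilage, skin and other cells together, and in such bulk tissue a change in the share of a cell type and a change within its cells cannot be told apart. The column of the exon table that holds the mutant is headed with the name of Mbnl2, a related gene, and is read here as the ΔE2 forelimb because the series has no other mutant. Mbnl3 was not among the genes of the exon table, so the deletion was not checked in the RNA-seq, and marker genes of forelimb or muscle were not analysed here.

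Muscleblind-like proteins bind RNA through zinc fingers and are known for setting whether cassette exons are included or skipped, mostly by binding in or near the exon, while muscle and other tissues develop. Macf1 is a very large spectraplakin that links actin filaments to microtubules, Cobl (cordon-bleu) nucleates actin filaments, and Dysf (dysferlin) is a membrane protein needed to reseal the damaged plasma membrane of muscle fibres. A cassette exon is read from RNA-seq through 3 kinds of junction: the junctions into and out of the exon count its inclusion, and the junction that joins its neighbours counts its skipping.

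Of the 4 exons, 1 had higher inclusion in ΔE2 forelimbs, the longer exon of Macf1, and 3 had lower inclusion, those of Cobl and Dysf and the shorter exon of Macf1. Over the whole list 54.1% of exons were higher and 45.9% lower in ΔE2, and since every listed exon had passed the authors' threshold nothing is read from these counts. The 2 exons of Macf1 had opposite directions.

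The exon of Macf1 (gene ID 11426) with higher inclusion is 63 nt long and lies in the event chr4:123117793-123122194 (mm9, minus strand), with introns of 3169 nt upstream and 811 nt downstream. In ΔE2 forelimbs 124 and 116 tags crossed its 2 inclusion junctions and 7.91 tags skipped it, which gives an inclusion of 93.8% (95% Wilson interval 88.2 to 96.8). In WT forelimbs the 2 inclusion junctions had 74.2 and 64.2 tags and the skipping junction 27.8, which gives 71.3% (61.4 to 79.2). The exon was thus included in nearly all ΔE2 tags, and the intervals of both genotypes lie apart. The difference was 22.5 percentage points (95% Newcombe interval 12.8 to 32.8), and the authors' deposited table gives a Fisher p of 3.04e-06 and an adjusted p of 0.000253 for it. These tags are totals over the 3 embryos of a genotype, so the intervals and the Fisher tests cover counting error only and hold no spread between embryos.

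The other exon of Macf1 is 18 nt long, the second shortest of the 98, and lies further along the same gene, in chr4:123038153-123042589 (mm9, minus strand). It was the most deeply read of the 4, with 281 and 282 inclusion tags and 164 skipping tags in ΔE2 forelimbs, or an inclusion of 63.3% (58.7 to 67.6). In WT forelimbs it had 199.8 and 219.8 inclusion tags and 75.2 skipping tags, or 73.6% (68.3 to 78.5). Its interval in ΔE2 lies just below that in WT. The difference of -10.4 points (-17.0 to -3.49) was the second narrowest of the list, whose changes run from 10.1 to 89.3 points in size. In the authors' deposited table its Fisher p is 0.00155 and its adjusted p 0.0322. Each exon of Macf1, counted on its own, was included in most tags of both genotypes, and ΔE2 forelimbs skipped the 63-nt exon less and the 18-nt exon more.

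The Cobl exon (gene ID 12808) is 45 nt long and lies in chr11:12269597-12276040 (mm9, minus strand), between introns of 2436 nt and 3637 nt. In ΔE2 forelimbs 13 and 7.97 tags included it and 28 skipped it, an inclusion of 27.2% (15.0 to 42.0). In WT forelimbs 25 and 26 tags included it and 17 skipped it, an inclusion of 59.9% (44.5 to 73.0). Skipping was thus the more frequent form in ΔE2 and inclusion the more frequent one in WT, which held for no other of the 4 exons. The difference of -32.7 points (-50.6 to -11.3) was the third widest decrease of the list and the seventh widest change in either direction. The authors' deposited table gives a Fisher p of 0.000537 and an adjusted p of 0.0167.

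The Dysf exon (gene ID 26903) is 42 nt long and lies in chr6:84037786-84047816 (mm9, plus strand), behind an intron of 8602 nt and before one of 1189 nt. It was the least included of the 4 in both genotypes. In ΔE2 forelimbs 2.02 and 3.02 tags included it and 24 skipped it, an inclusion of 9.50% (3.85 to 28.1). In WT forelimbs 8.87 and 6.87 tags included it and 13.1 skipped it, an inclusion of 37.5% (20.8 to 59.1). Few tags stand behind this pair, and the intervals of both genotypes overlap. The difference was -28.0 points, with an interval of -50.3 to -3.00 that covers nearly any decrease; the authors' deposited table gives a Fisher p of 0.00149 and an adjusted p of 0.0312.

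**Figure D1:**
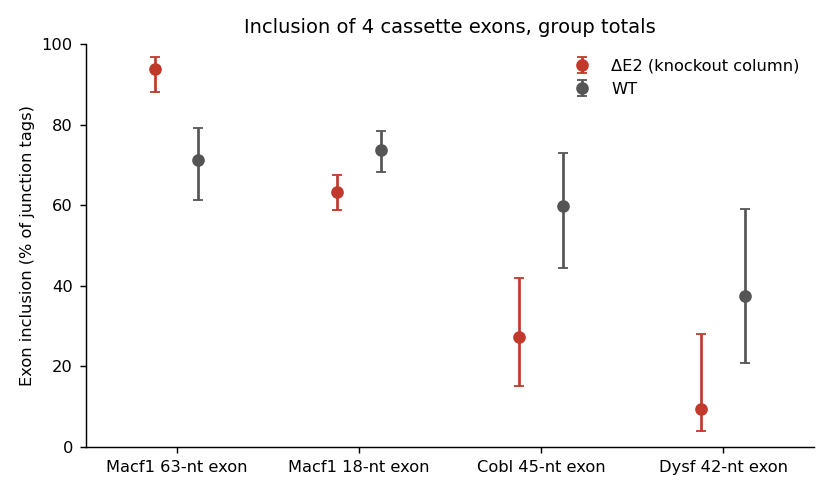
Inclusion of the 4 cassette exons, in percent of junction tags, in ΔE2 and WT forelimbs. Points are totals over 3 embryos per genotype and bars are 95% Wilson intervals for counting error; the 63-nt exon of Macf1 is higher in ΔE2 (93.8% against 71.3% in WT) and the other 3 are lower.

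Sorted by change, the exons nearest to each member belong to genes of other functions. The 63-nt exon of Macf1 was 13th among the 53 increases, between those of Abi3bp (25.8 points) and Psme3 (22.4 points). Its 18-nt exon stood among the decreases between Max (-10.9 points) and Gatad2a (-10.1 points), next to the end of the list. Cobl followed Ube2d3 (-34.8 points) and preceded Zfp322a (-30.0 points), and Dysf came next, before an exon of Cuedc2 (-27.8 points). The median size of change over all 98 exons was 15.5 points, so that Cobl, Dysf and the 63-nt exon of Macf1 lie above it and the 18-nt exon below.

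**Figure D2:**
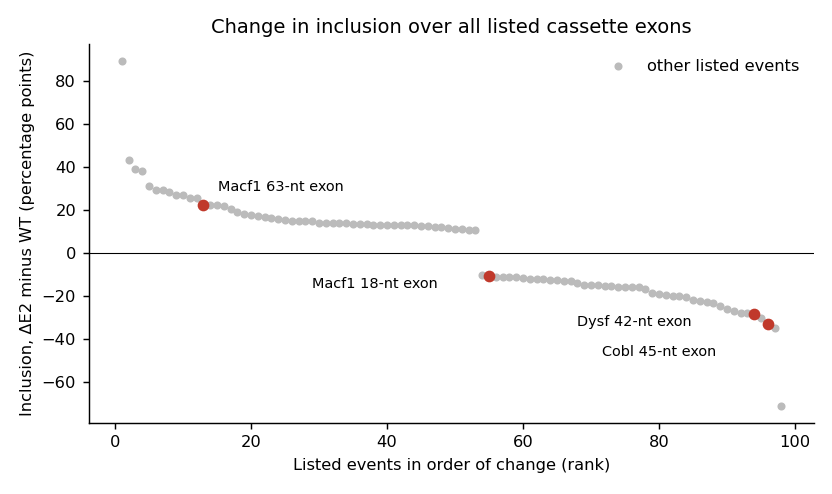
Change in inclusion, ΔE2 minus WT in percentage points, of all 98 listed exons in order of the change. The 4 exons of Macf1, Cobl and Dysf are marked in red; the empty band around 0 reflects that no listed exon changed by less than 10.1 points.

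The 4 exons share features that the selection by symbol did not use. All 4 have a length that is a multiple of 3, so that skipping keeps the reading frame where the exon is coding; over the list this held for 59 of 98 exons (60.2%). All 4 are shorter than the median of 80.5 nt (range 16 to 759). Their introns show no common pattern: the upstream intron is longer than the list's median of 1766 nt in Macf1's 63-nt exon, Cobl and Dysf, and shorter in the 18-nt exon (1198 nt), while the downstream intron exceeds the median of 1842 nt only in Cobl and the 18-nt exon (3029 nt). Whether the exons are coding was not looked up, since no mm9 annotation was used here.

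Junction tags at these genes also differed in number between genotypes. Per exon, counting the mean of the inclusion junctions plus the skipping junction, the Cobl exon had 38.5 tags in ΔE2 and 42.5 in WT, a ratio of 0.906. The ratios were 1.26 for Dysf (26.5 tags in ΔE2, 21 in WT), 1.32 for the 63-nt exon of Macf1 (128 in ΔE2, 97.0 in WT) and 1.56 for its 18-nt exon (446 in ΔE2, 285 in WT). The list's median ratio was 1.66, and 93 of the 98 exons had more tags in ΔE2, so that all 4 members lay below the median and Cobl had the third lowest ratio of all. The tags are not scaled to library size, and expression of these genes was not tested.

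Few other genes of the same functions were in the exon table. Of 7 plakins and spectraplakins, Macf1 was the only one listed. None of 36 microtubule, kinesin and septin genes was listed, and of 27 ferlin and membrane repair genes Dysf was the only one. Of 28 vesicle coat and traffic genes, Clta, a clathrin light chain, had 2 listed exons. The 54-nt exon was at 90.0% in ΔE2 and 0.673% in WT, and the 36-nt exon at 25.8% in ΔE2 and 96.5% in WT. These 2 events are not separate: the second begins in the window of the 54-nt exon and shares a junction with the first (32.1 tags in ΔE2, 0 in WT). The 96.5% in WT rests on 0 and 49.8 inclusion tags and 0.899 skipping tags, so it does not measure inclusion of the 36-nt exon by itself. The numbers of genes given here say which were listed, not which were measured, because the table holds changed exons only.

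The CLIP libraries differed in depth and were not all distinct. The ΔE2 libraries held 67279, 40531 and 59115 tags and the WT libraries 35413, 74123 and 124309, while the 3 C2C12 replicates came as 1 combined list of 550124 distinct molecules, a molecule being a position, strand and barcode. Replicates 2 and 3 of ΔE2 shared 33916 molecules, 83.7% of replicate 2 and 57.4% of replicate 3, and were counted once as 1 library of 65730 tags, which leaves 2 ΔE2 libraries against 3 WT libraries. Sharing also crossed the genotypes: 20258 molecules, 30.1% of ΔE2 replicate 1 and 16.3% of WT replicate 3, were in both of those libraries. ΔE2 replicate 1 shared 14.9% of its molecules with WT replicate 2 and 5.88% with replicates 2 and 3 of its own genotype, so by shared molecules it stood nearer to these WT libraries than to the other ΔE2 library. WT replicates 2 and 3 shared 24005 molecules. Whether a library was mislabelled or mixed was not tested, and each comparison of ΔE2 with WT tags below takes the labels as given. Of all forelimb molecules 17.9% were in more than 1 library and 9.03% in both genotypes. Between 2 and 3 libraries an exact permutation test cannot go below a p of 0.1.

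Across the 4 events, from the exon upstream to the exon downstream, few CLIP tags were found in forelimb. Tags on the strand of the gene were counted if they overlapped the event by at least 1 nt. The 18-nt exon event of Macf1 was the only one with more than 1 forelimb tag, and its tags were all from ΔE2. It had 1 and 5 tags in the 2 ΔE2 libraries (14.9 and 76.1 CPM, that is tags per 1000000 tags of the library), against 0, 0 and 0 in the 3 WT libraries. The genotypes did not overlap, and the difference in means was 45.5 CPM (exact permutation p = 0.100, two-sided, the smallest this design allows). Of the 76 events with any forelimb tag, 13.2% likewise had both ΔE2 libraries above all WT libraries. With the totals of each genotype pooled, ΔE2 had 45.1 CPM (Wilson interval 20.7 to 98.4), and a count of 0 over the WT group allows up to 12.8 CPM (3 counts, for counting error only). The ΔE2 value rests on replicates 2 and 3, which held 5 of the 6 tags: without replicate 1 the difference was 76.1 CPM, while replicate 1 alone, at 14.9 CPM, had a single tag. At the density of the whole gene, described below, 1.31 tags were expected in this event in ΔE2 and 1.73 in WT, which is few tags in either genotype. Tags were not even along the gene: from 300 to 326 kb, where this event lies, WT had 2 tags and ΔE2 8. Of these 8, 6 were the tags of the event itself, so the ΔE2 count is no separate background for it. The even density thus gives too high an expectation for WT here.

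The tags of this event lay in the exon window and in both introns. A molecule of ΔE2 replicates 2 and 3, at chr4:123041230-123041264 (mm9), fell inside the 210-nt window that holds the 18-nt exon, and it was read 3254 and 7152 times in those libraries. It is counted as 1 molecule here, since reads with the same position, strand and barcode are taken as copies. The only place where both ΔE2 libraries had a tag was in the downstream intron, where molecules at 123038576-123038596 (replicate 1) and 123038573-123038596 (replicates 2 and 3) overlapped, 2585 to 2777 nt behind the exon. C2C12 cells had 9 tags over the event (16.4 CPM, Wilson interval 8.61 to 31.1), and 7 of the 9 lay downstream of the exon. At their mean density along the gene 5.43 were expected. C2C12 tags were denser at this end of the gene, with 74 from 300 to 326 kb, the event's own 9 included, so that 5.43 is too low for this place. The 9 tags are thus not read as an excess near the exon.

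The other 3 events had at most 1 forelimb tag each. At the 63-nt exon of Macf1, the ΔE2 libraries had 0 tags, and WT replicate 1 had a single tag (28.2 CPM) at 123118732-123118752, inside the 255-nt window that holds the exon; WT replicates 2 and 3 had 0. C2C12 cells had 4 tags there (7.27 CPM, 2.83 to 18.7), of which 1 lay 9 to 201 nt downstream of the exon and 1 lay 75 to 267 nt upstream. The exact permutation p for ΔE2 against WT was 1.00. At the Dysf event the ΔE2 libraries had 0 tags and WT replicate 2 had 1 (13.5 CPM), in the upstream intron 6650 to 6848 nt from the exon; the exact permutation p was 1.00. C2C12 cells had 2 Dysf tags (3.64 CPM), both downstream of the exon. The nearer one lay 154 to 352 nt from it, in the intron. The other lay 1021 to 1219 nt from it and, with an intron of 1189 nt, may reach the next exon.

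At the Cobl event no forelimb library had a tag. A count of 0 allows up to 22.6 CPM over the ΔE2 group and 12.8 over the WT group, for counting error only. C2C12 cells had 3 Cobl tags (5.45 CPM, 1.85 to 16), of which 1, at chr11:12273490-12273518 (mm9), lay in the 371-nt window that holds the 45-nt exon. Events without forelimb tags were common: 22 of the 98 had none, and the median event had 4. An edgeR quasi-likelihood test over all events had only 2 with enough tags to test, neither of them in Macf1, Cobl or Dysf, and called 1 of those (50.0%).

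Over longer stretches, from the start of each gene as listed to the end of its last listed event, Macf1 carried many tags and Cobl and Dysf few. These stretches were chosen after the tags in the events had been seen. The Macf1 stretch is chr4:123038153-123364485 (mm9), 326333 nt long, and had 50 and 46 tags in the ΔE2 libraries (743 and 699.8 CPM), against 21, 52 and 54 in the WT libraries (593, 702 and 434 CPM). The genotypes overlapped, with ΔE2 replicates 2 and 3 just under WT replicate 2. ΔE2 averaged 722 ± 30.6 (SD, n = 2) and WT 576 ± 134 (SD, n = 3) CPM, with an exact permutation p of 0.300. In edgeR's quasi-likelihood test over the 84 stretches, of which 11 had enough tags, the log2 fold change of Macf1 was 0.38 (SE 0.22, 95% interval -0.13 to 0.89, adjusted p = 0.446). None of the 11 was called (0%), none had an unadjusted p under 0.05, and DESeq2 likewise called 0 of 84 with 0 at an unadjusted p under 0.05. The interval holds both a small decrease and a clear increase. The median log2 fold change over the 11 tested stretches was 0.32, so the value of Macf1 lay close to that of the tested stretches as a group. In a wider test of 1723 windows of 100000 nt and gene stretches, of which 4.47% were called, Macf1 had a log2 fold change of 0.37 with an adjusted p of 0.385 in edgeR. The median there was -0.10.

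The call at Macf1 depended on the molecules that libraries share. In its stretch 39 of 171 forelimb molecules (22.8%) were in more than 1 library and 20 in both genotypes. With every such molecule left out, Macf1 had 30 and 42 tags in the ΔE2 libraries and 9, 24 and 27 in the WT libraries. This removal was uneven. Molecules shared only by ΔE2 replicates 2 and 3 were kept, since these count as 1 library, while those shared by WT replicates were removed. Over all tags it took 10.4% of the molecules of ΔE2 replicates 2 and 3 and 38.4% of ΔE2 replicate 1. From WT replicates 1, 2 and 3 it took 45.8%, 42.6% and 34.3%. In edgeR the log2 fold change of Macf1 was then 0.77 with an adjusted p of 0.0206, and Macf1 was the 1 stretch called of 6 with enough tags to test. With each shared molecule kept instead only where it had most reads, the log2 fold change was 0.44 with an adjusted p of 0.456, and no stretch was called. Without ΔE2 replicate 1, which shared most with WT libraries, edgeR gave 0.34 with an adjusted p of 0.865; the lone ΔE2 library left is then assumed to vary like the WT libraries. How molecules came to be in several libraries was not tested.

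Cobl had 2 and 2 tags in the ΔE2 libraries over its 98269-nt stretch (29.7 and 30.4 CPM), against 1, 3 and 8 in the WT libraries (28.2, 40.5 and 64.4 CPM). The groups overlapped, and the exact permutation p was 0.5. Dysf had 1 and 0 tags in ΔE2 and 0, 1 and 0 in WT over 92118 nt, with an exact permutation p of 0.700. At such counts neither gene could show a difference. Per length, in tags not scaled to depth, Macf1 had 0.294 tags per kb in ΔE2, 1.22 in C2C12 and 0.389 in WT. Cobl had 0.0407, 0.142 and 0.122, and Dysf 0.0109, 0.0651 and 0.0109. Within each set of libraries Macf1 was thus the most densely tagged and Dysf the least. Between the sets these values cannot be compared, because the sets differ in depth.

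**Figure D3:**
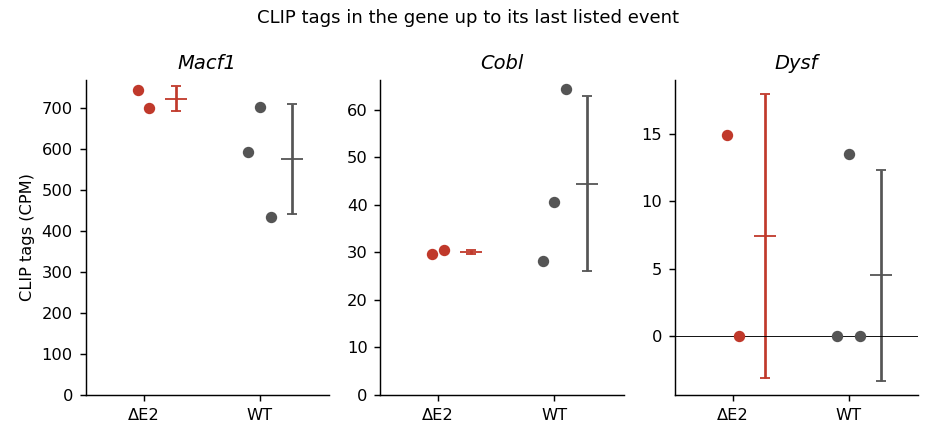
CLIP tags in CPM over the stretches of Macf1, Cobl and Dysf in the ΔE2 and WT forelimb libraries. Points are libraries and bars beside them mean and SD (n = 2 for ΔE2, n = 3 for WT); the genotypes overlap at Macf1 and Dysf, and at Cobl both ΔE2 libraries lie within the WT range of 28.2 to 64.4.

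C2C12 cells, a line of the muscle lineage, gave levels at these genes beside those of whole forelimb. The Macf1 stretch had 399 tags in C2C12 (725 CPM, 658 to 800.0), against 543 CPM over the pooled WT forelimb libraries (457 to 646), a ratio of 1.34. These intervals do not overlap, but the single WT libraries ranged from 434 to 702 CPM. WT replicate 2, at 702 CPM, lay within the C2C12 interval. The Cobl stretch had 14 tags in C2C12 (25.4 CPM, 15.2 to 42.7), against 51.3 in WT forelimb (29.4 to 89.7), and these intervals overlap. Dysf had 6 tags in C2C12 (10.9 CPM, 5.00 to 23.8), against 1 in WT forelimb (4.28 CPM, 0.755 to 24.2). The intervals cover counting error only, since the C2C12 replicates were deposited combined and the WT libraries are pooled here. A molecule found in several WT libraries counts once in each of them. C2C12 was not tested against forelimb. Ordered by level, Macf1 had nearly equal values in C2C12 and ΔE2 forelimb (725 and 722 CPM) and a lower one in WT, and the ΔE2 interval of 591 to 881 overlaps both of the others.

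Along Macf1, C2C12 and WT forelimb tags were spread differently, and the ΔE2 libraries differed from each other. In ΔE2 forelimb the counts in successive bins of 50 kb from the start of the gene were 14, 16, 15, 11, 10 and 22, with 8 in the last part of the stretch. In C2C12 they were 28, 27, 31, 43, 63 and 133, with 74 in the last part, and in WT forelimb 30, 29, 27, 19, 4 and 16, with 2 in the last part. C2C12 tags thus were most frequent toward the far end of the gene, where the 18-nt exon lies, and WT tags toward its start. ΔE2 replicate 1 had 10, 11, 9, 5, 4 and 8 tags in these bins and 3 in the last part, most of them toward the start as in WT, while replicates 2 and 3 had 4, 5, 6, 6, 6 and 14 and 5 in the last part.

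**Figure D4:**
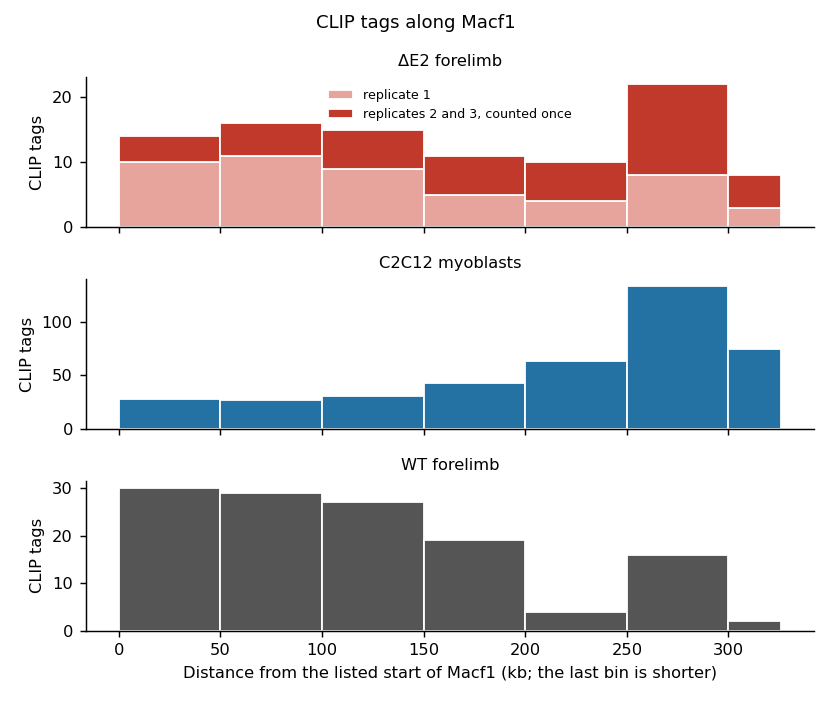
CLIP tags along Macf1 in bins of 50 kb from the listed start of the gene, in ΔE2 forelimb (replicate 1 light, replicates 2 and 3 counted once dark), C2C12 and WT forelimb, each on its own count axis. C2C12 has its highest count, 133, in the bin from 250 to 300 kb, and WT forelimb has its highest counts within the first 150 kb.

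The share of Macf1 tags beyond 163 kb, the middle of the stretch, gives this per library. It was 34.0% in ΔE2 replicate 1 (17 of 50, 22.4 to 47.8) and 63.0% in ΔE2 replicates 2 and 3 (29 of 46, 48.6 to 75.5), against 33.3%, 23.1% and 24.1% in WT replicates 1, 2 and 3. In C2C12 it was 76.4% (305 of 399, 72.0 to 80.3). The ΔE2 libraries averaged 48.5 ± 20.5% (SD, n = 2) and WT 26.8 ± 5.66% (SD, n = 3), a difference of 21.7 points that rests on replicates 2 and 3 of ΔE2: without them it was 7.17 points, and replicate 1 stood only just above WT replicate 1. With shared molecules left out the genotypes overlapped, at 40.0% and 64.3% in ΔE2 and 44.4%, 20.8% and 29.6% in WT. This measure was chosen after the tags had been seen and has no test. Among the 28 other stretches with at least 20 forelimb tags, 14.3% also had both ΔE2 libraries above all WT libraries, and 9 had a wider difference than Macf1.

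Single places with tags in Macf1 were mostly seen once. Tags that overlapped were joined into sites, 448 in the Macf1 stretch over all libraries. Of these, 141 had a forelimb tag and 331 a C2C12 tag, and 24 had both, 17% of the forelimb sites and 7.25% of the C2C12 sites. ΔE2 had 83 sites and WT 79, with 21 in common, 25.3% of the ΔE2 sites and 26.6% of the WT sites. Only 43 sites had tags from 2 or more forelimb libraries, and 97 had a single forelimb tag. Sites were not recounted without shared molecules. Since 39 molecules of the stretch were in more than 1 library and 20 in both genotypes, sites in common can hold the same molecule rather than separate ones.

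The only site with tags in all 5 forelimb libraries lay 39.0 kb from the start of Macf1, at chr4:123325409-123325443 (mm9). It had 2 and 1 tags in the ΔE2 libraries, 0 in C2C12, and 1, 1 and 3 in the WT libraries, and molecules shared between libraries were not left out. A site at 123322978-123323030 had 0 tags in ΔE2 and 1, 3 and 1 in WT, and was chosen after its values were seen. The most tagged C2C12 site, at 123087584-123087672, held 4 tags and lay 277 kb from the start. No single site in Macf1 had more than 8 forelimb tags. In Cobl 16 sites had a forelimb tag and 13 a C2C12 tag, with 1 in common, at chr11:12358760-12358790, and none was seen in both genotypes. Dysf had 2 forelimb sites and 6 C2C12 sites, with none in common.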

How the data were processed

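The submitters' processing notes name the build mm9, TopHat 1.3.2 and Bowtie for the RNA-seq, and Novoalign, with no version, for CLIP. The authors deposited expected counts of tags (fractional) for each junction and isoform, as totals over the 3 embryos of a genotype. Per the file headers, the same table holds an odds ratio from those totals, and the authors' Fisher p-value with its Benjamini-adjusted p-value. The authors deposited CLIP tags as positions with a 5-base barcode, 1 list for each forelimb library and 1 combined list for C2C12; per the labels' protocols, RNase A digestion was done at a high and a low concentration.

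Inclusion was the mean of both inclusion junctions over that mean plus the skipping junction, with 95% Wilson and Newcombe intervals; for all 98 exons the change came within 0.05 points of the deposited one. Exons were placed within windows from the table's offsets. The deposited odds ratio was not used further. CLIP tags were counted once per position, strand and barcode, in CPM of all tags of the library. edgeR 4.0.16 (quasi-likelihood test, library size of all tags, minimum count 10, adjusted p at or under 0.05) and DESeq2 1.42.0 with the same library sizes ran in R 4.3.3 on all events or stretches, after a test on simulated data. Permutation tests used scipy 1.17.1. The members and gene lists were chosen with earlier results of these data known, and every event of Macf1, Cobl and Dysf, of a listed gene and next to a member in the order of change is named. The list of actin proteins is not reported here. Whole-gene stretches, shared molecules, windows and places along Macf1 were examined after the data had been seen. The labels number replicates without saying what a shared number marks. All 3 gene IDs matched the symbol table.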

Additional observations from a re-analysis of the deposited data

How the results depend on the processing

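The changes in inclusion kept their direction at all 4 exons with junction 1 alone, junction 2 alone or the deposited isoform tags: 21.3 to 23.9 points at the 63-nt exon of Macf1, -11.2 to -9.44 at its 18-nt exon, -38.2 to -27.8 at Cobl and -32.6 to -23.2 at Dysf. Of the events tested with edgeR, the 1 call (not a member) became 0 with WT replicates 2 and 3 counted as 1 library, TMM scaling, DESeq2 (0 of 98 events at an unadjusted p under 0.05), no filter (6 of 76 events at an unadjusted p under 0.05), events widened by 1000 nt, or shared molecules given to the library with most reads, and was 0 to 1 with single libraries left out. Without the filter the event of the 18-nt exon had an adjusted p of 0.429. The stretches had 1 call of 6 tested in place of 0 of 11, Macf1 with a log2 fold change of 0.77, when molecules in more than 1 library were left out. That removal took a smaller share of ΔE2 replicates 2 and 3 (10.4%) than of the WT replicates (34.3% to 45.8%). The log2 fold change of Macf1 lay at 0.17 with TMM scaling (adjusted p = 0.745) and 0.33 with DESeq2 (adjusted p = 0.988), and between 0.11 without WT replicate 3 and 0.62 without WT replicate 2 (adjusted p = 0.0506); the median over tested stretches was 0.32, and 0.11 with TMM scaling. The difference in CPM, ΔE2 minus WT, was -14.1 to 0 at the 63-nt exon and -6.75 to 0 at Dysf, and 41.3 to 76.1 at the 18-nt exon, with single libraries left out, since a single WT library held the only tag of the 63-nt exon and of Dysf. With the 6 libraries as labelled, deviations of same-numbered samples correlated at -0.04, 0.09 and -0.25. These values cannot decide on pairing, because ΔE2 replicates 2 and 3 share most molecules and libraries of unlike numbers share molecules across genotypes. What a shared number marks is not known. With a replicate block 0 stretches and 1 event were called, as without it, and Macf1 had a log2 fold change of 0.48. The causes of these changes were not tested. The events held at most 6 tags in a genotype, which limits the precision of each of their values.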
